A study of Mus musculus with 8 samples.

Results

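Treg precursors sorted from the thymus of mice labelled Nr4a-TKO were compared with conventional T cells of the wild-type thymus on 4 of the 8 one-colour Agilent microarrays of this series. Nr4a-TKO preTreg were CD4 single-positive (CD4SP) thymocytes high in CD25, GITR and Nr4a3, from mice of the genotype labelled Nr4a-TKO, a knockout of genes of the Nr4a nuclear receptor family (2 arrays). WT Tconv were wild-type CD4SP thymocytes low in CD25 (2 arrays). WT Treg, used below only where a value is set beside theirs, were wild-type CD4SP thymocytes positive for Foxp3 (2 arrays). The remaining 2 arrays held Foxp3-KO preTreg, CD4SP thymocytes sorted on high CD25 and on a Foxp3 reporter. They served to estimate the spread, and beyond that only some marker sums and replicate deviations of theirs are given. All cells were sorted fresh and lysed without culture, and the labels call the 2 arrays of a group biological replicates. Age, sex and strain were not given, nor were the deleted alleles and the cell type in which they were deleted. No precursor group of wild-type mice was measured, so the genotype and the sort gate changed together and cannot be told apart in any value below.

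Thymic Tregs arise among CD4SP thymocytes that receive strong T cell receptor signals. These signals raise CD25, the high-affinity subunit of the IL-2 receptor, and GITR, a receptor of the TNF family, and IL-2 acting through STAT5 then switches on Foxp3, the transcription factor of the Treg lineage. The Nr4a family, Nr4a1, Nr4a2 and Nr4a3, consists of orphan nuclear receptors that are induced within hours of T cell receptor stimulation, bind the NBRE sequence as monomers, and take part in negative selection and in the induction of Foxp3. Conventional CD4 thymocytes pass through the medulla, gain egress receptors and leave as naive cells.

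Each array held 62976 spots, and 50.5% to 52.1% of the probes exceeded background clearly on each of the 4 arrays, by the flag in the files. Levels are log2 intensities relative to the 75th percentile of the array, so a gene at that percentile has a level of 0. Levels of different genes cannot be compared, because each comes from its own probe. A gene was represented by its brightest probe and tested if its signal was flagged as well above background on both arrays of at least one of these groups, which left 13396 of 21154 genes. Replicates correlated at r = 0.991 in Nr4a-TKO preTreg and 0.997 in WT Tconv across these genes, which are not independent. The median SD between replicates was 0.095 in Nr4a-TKO preTreg and 0.055 in WT Tconv on the log2 scale. The arrays are called TKO 1, TKO 2, Tconv 1 and Tconv 2 where one of them matters.

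The genes of the genotype and of the gate come first, because they check the labels. Nr4a2 was at 3.72 and 3.87 in Nr4a-TKO preTreg, against -1.51 and -1.56 in WT Tconv and 1.60 and 1.79 in WT Treg. It was 40.3-fold higher in Nr4a-TKO preTreg than in WT Tconv (log2 difference 5.33 ± 0.20 SE, limma adjusted p = 0.00016). Nr4a1 was at 7.73 and 7.96 in Nr4a-TKO preTreg, against 6.84 and 6.83 in WT Tconv and 7.28 and 7.62 in WT Treg, a difference from WT Tconv of 1.01 ± 0.19 (SE, limma adjusted p = 0.0089). Nr4a3, a gate marker, was at -0.42 and -0.12 in Nr4a-TKO preTreg, against -1.53 and -1.57 in WT Tconv and -0.36 and 1.01 in WT Treg, and its difference from WT Tconv of 1.28 did not pass (limma adjusted p = 0.063, 95% interval 0.15 to 2.40). The arrays labelled Nr4a-TKO thus had no lower signal than WT Tconv for any of these 3 genes. The deleted parts are not given, and a probe outside them measures transcripts that a deletion may leave, so the probes check no genotype.

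Il2ra, which encodes CD25, was at 6.20 and 5.69 in Nr4a-TKO preTreg, against -1.58 and -1.79 in WT Tconv. Foxp3 was at 3.80 and 3.25 in Nr4a-TKO preTreg, against -3.40 and -3.79 in WT Tconv and 5.0 and 4.72 in WT Treg. Both genes were far above WT Tconv on each array of the precursors, by 7.63 for Il2ra and 7.12 for Foxp3, while Foxp3 was -1.34 against WT Treg (limma adjusted p = 0.011). Tnfrsf18, which encodes GITR, was 1.72 above WT Tconv. The gates acted on CD25 and GITR directly, so the differences of Il2ra and Tnfrsf18 describe the sort. Foxp3 was no part of the gates of Nr4a-TKO preTreg and WT Tconv. Cd4 was lower in Nr4a-TKO preTreg, with a log2 difference of -0.54 (limma adjusted p = 0.0063), and Cd8a was at -0.87 and -0.48 in Nr4a-TKO preTreg, against -1.12 and -0.92 in WT Tconv, with an interval of the difference of -0.54 to 1.22.

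**Figure D1:**
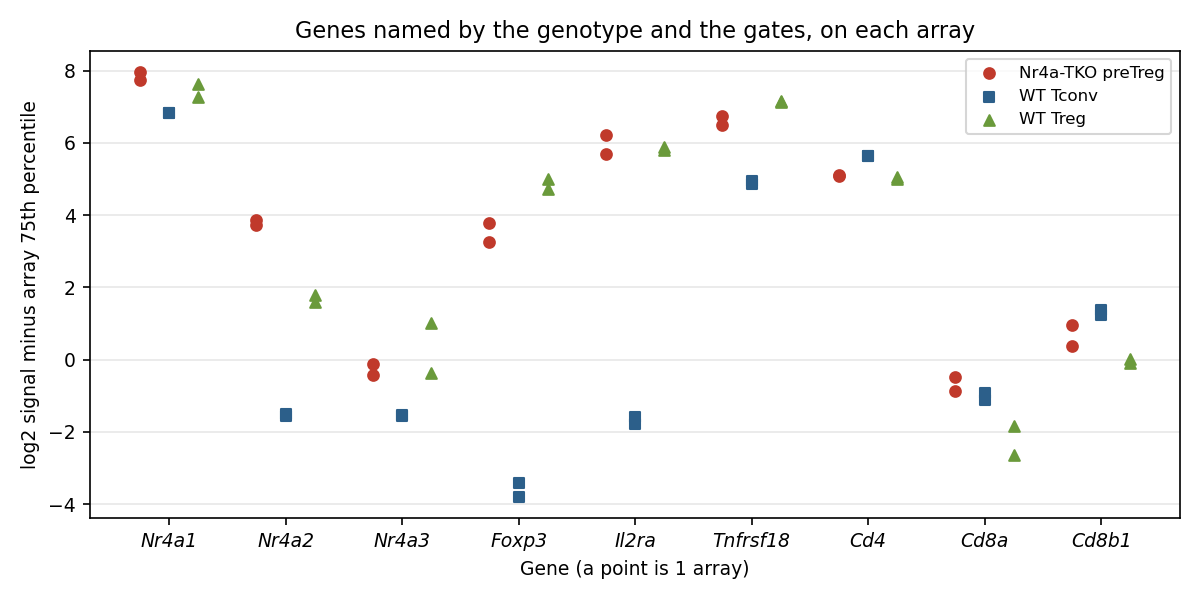
Levels of the targeted and gate genes on each array (log2 intensity relative to the array's 75th percentile), with Nr4a-TKO preTreg left of WT Tconv and WT Treg. Each point is 1 array. Il2ra and Foxp3 separate Nr4a-TKO preTreg from WT Tconv by over 7 on the log2 scale, and Nr4a2 is highest in the arrays labelled Nr4a-TKO.

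Markers of other cell types also separated the groups, and they separated the 2 Nr4a-TKO arrays from each other. The summed linear level of the B cell markers, in multiples of the array's 75th percentile, was 66.9 on TKO 1 and 16.9 on TKO 2, against 2.26 and 2.15 in WT Tconv and 5.84 and 4.23 in WT Treg. Cd79a, Ms4a1, Pax5 and Ebf1 were among the B cell markers below background on both WT Tconv arrays, and none of the B cell markers was so on both Nr4a-TKO arrays. Macrophage markers summed to 64.6 on TKO 1 and 31.0 on TKO 2, against 2.72 and 2.65 in WT Tconv and 15.1 and 5.63 in WT Treg. Of the macrophage markers, Vsig4 was below background on both Nr4a-TKO arrays, and Adgre1, C1qa, C1qc, Mrc1, Fcgr1 and Vsig4 were so on both WT Tconv arrays. In the longer lists of such genes, 17 of 21 tested of 24 listed genes of B and plasma cells and 22 of 27 tested of 30 listed genes of macrophages were called higher. Of all tested genes, 21.6% were called higher and 27% lower. For B and plasma cells the number higher was 9 among genes above background on all 4 arrays, 10 without TKO 1, 4 without Tconv 1 and 8 without Tconv 2, and for macrophages 11 among genes above background on all 4 arrays, 10 without TKO 1, 11 without Tconv 1 and 12 without Tconv 2. Markers of CD4 T cells summed to 715 and 760 in Nr4a-TKO preTreg, against 822 and 858 in WT Tconv.

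Some markers ran the opposite way. Markers of CD8 or immature thymocytes summed to 3.55 and 5.97 in Nr4a-TKO preTreg, against 23.4 and 23.1 in WT Tconv. In WT Treg they summed to 6.04 and 4.12, so both Treg-lineage groups were low. The 5 markers of innate-like T or NK cells summed to 2.09 and 2.42 in Nr4a-TKO preTreg, against 11.8 and 11.5 in WT Tconv. Their sums in WT Treg were lower still, at 0.95 and 0.79. Of these 5, Ncr1 was below background on both WT Tconv arrays, while all 5 were above background on both Nr4a-TKO arrays. The sum of a longer list of innate-like and gamma-delta T cell genes was higher in Nr4a-TKO preTreg, at 186.4 and 180.0, against 77.98 and 74.77 in WT Tconv. Of 15 tested of 20 listed genes (16 on the array) of that list, 6 were called higher and 6 lower in Nr4a-TKO preTreg, with a median log2 difference of 1.09. Each count is 40% of the tested members, beside 21.6% higher and 27% lower over all tested genes. The number higher was 2 without TKO 1, 2 without TKO 2, 2 without Tconv 1, 2 without Tconv 2, 3 without Treg 1 and 3 without Treg 2, and the number lower was 3 without Tconv 1. Krt8, Foxn1 and Psmb11 of the thymic epithelium were below background on all 4 arrays, as were Hbb-b1 and Alas2 of red cells. The 6 dendritic cell markers, some of which T cells also transcribe, summed to 337 and 331 in Nr4a-TKO preTreg, against 374 and 391.8 in WT Tconv. Xcr1 and Clec9a were below background on both Nr4a-TKO arrays, and Xcr1 and Zbtb46 on both WT Tconv arrays. A longer dendritic cell list summed to 588.2 and 588.6 in Nr4a-TKO preTreg, against 457.9 and 479.1 in WT Tconv. Of 15 tested of 19 listed genes of it, 11 were called higher and 0 lower, with a median log2 difference of 2.08. The share higher was 73.3%, beside the 21.6% over all tested genes. The number higher was 7 without TKO 1, 7 without Tconv 1 and 7 without Tconv 2. The part of other cells in the results below was not tested, and in a sorted bulk sample fewer cells of a type cannot be told apart from less RNA per cell. TKO 1 was the highest array in the B cell and macrophage markers. In Foxp3-KO preTreg, replicate 1 was also above replicate 2, at 20.1 and 4.815 for B cell markers. Macrophage markers there were at 33.5 and 7.705.

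**Figure D2:**
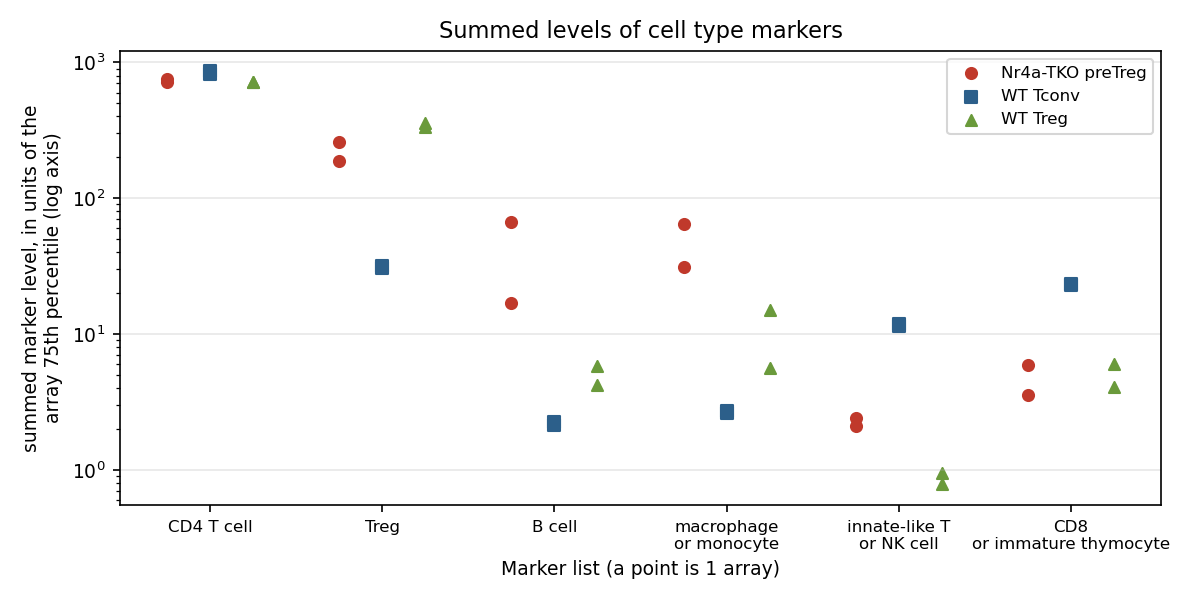
Summed linear level of marker genes of each cell type on each array (multiples of the array's 75th percentile, log axis), with Nr4a-TKO preTreg shown before WT Tconv and WT Treg. B cell markers are at 66.9 and 16.9 in Nr4a-TKO preTreg and under 3 in WT Tconv. The sum of 5 innate-like T or NK cell markers is lower in Nr4a-TKO preTreg than in WT Tconv, and lowest in WT Treg.

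Nr4a receptors bind AAAGGTCA, the NBRE, so the stretches before the start sites of the genes described below were searched for it on both strands. The letters occurred in 1.51% of all 32851 RefSeq promoter windows of GRCm38.p6 (250 bases before to 50 after a start). They occurred in 1.05% of the windows of genes that were higher in Nr4a-TKO preTreg, 1.32% of those of genes that were lower and 0.998% of those of genes that did not pass. Of 736 called members of the gene lists, 568 had a window, and at least 6 had the motif within the 100 bases before a start. The motif lay in those bases in 0.511% of all windows. This share counts windows and the 6 counts genes, which can have several windows, so the values cannot be compared. Of 61 genes, the targeted and gate genes and those with the leading differences, 42 had a window, and 0 of their 59 windows held the motif. These 6 are shown because they hold the letters an Nr4a monomer binds close to a start. The 100 bases end at the base before the start, run 5′ to 3′ on the gene's strand, and carry the motif in capitals, in each case as TGACCTTT, its reverse complement:
Stat5a, chr11:100860384-100860483 (+): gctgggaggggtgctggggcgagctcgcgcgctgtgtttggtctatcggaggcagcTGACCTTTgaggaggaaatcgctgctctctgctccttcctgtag
Stat5b, chr11:100822571-100822670 (-): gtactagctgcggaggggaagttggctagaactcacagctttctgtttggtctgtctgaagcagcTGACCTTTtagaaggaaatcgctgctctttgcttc
Tcf7, chr11:52282596-52282695 (-): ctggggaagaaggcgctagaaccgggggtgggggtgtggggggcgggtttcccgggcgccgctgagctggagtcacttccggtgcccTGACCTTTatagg
Ccnd3, chr17:47504951-47505050 (+): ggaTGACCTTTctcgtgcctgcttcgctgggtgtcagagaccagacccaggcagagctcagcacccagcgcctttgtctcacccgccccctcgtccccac
Rpl35a, chr16:33056353-33056452 (+): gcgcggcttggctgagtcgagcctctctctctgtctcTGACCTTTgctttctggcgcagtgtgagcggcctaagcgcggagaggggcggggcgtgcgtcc
Ccl6, chr11:83593088-83593187 (-): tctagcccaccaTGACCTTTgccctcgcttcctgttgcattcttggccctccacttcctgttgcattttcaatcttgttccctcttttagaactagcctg
A match describes letters, not a bound site. The neighbours Stat5a and Stat5b, the STAT proteins downstream of IL-2, carried the motif at a like distance from the start and moved in opposite directions, with log2 differences of 0.66 and -0.57. Tcf7, which encodes the T cell factor TCF1, fell by 0.70 and the cyclin gene Ccnd3 by 0.83 on the log2 scale. Rpl35a, a ribosomal protein gene, fell by 0.29, and the chemokine gene Ccl6 was at least 152-fold higher.

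Across all tested genes, 6515 differed between Nr4a-TKO preTreg and WT Tconv at an adjusted p under 0.05 (limma, Benjamini-Hochberg), which is 48.6% of 13396. Of these, 2892 (21.6%) were higher in Nr4a-TKO preTreg and 3623 (27%) were lower. A list share near these in a direction is no more than that of the tested genes at large. The rises were larger than the falls: the median log2 difference was 1.42 among genes called higher and -0.59 among genes called lower. A change of at least 8-fold was found for 736 genes that were higher and 82 that were lower. The median over all tested genes was -0.096, and it was -0.17 with median scaling, where 38.4% of the calls were higher against 44.4% with the main scaling. The replicates of the groups did not overlap for 82.5% of tested genes, so a gap between pairs of arrays is common in this comparison. Leaving out TKO 1 left 3850 calls, Tconv 1 3117 and Tconv 2 3340, in fits with 1 residual degree of freedom fewer. Below, where a count of at least 4 genes of a list moved by over 1.5 times in another fit, the count of that fit is given too. The 2-fold minimum, which lowers counts by its construction, is left out of this.

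Some genes were below background in one group. Where every probe of a gene was below background on both arrays of a group, its fold is given as "at least", from the mean of the bright group against the lowest signal among probes above background on each dim array. Of 714 genes below background on both WT Tconv arrays, 633 were called higher in Nr4a-TKO preTreg. Of 209 genes below background on both Nr4a-TKO arrays, 152 were called lower. Each such gene passed the filter through the group where it was bright.

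**Figure D3:**
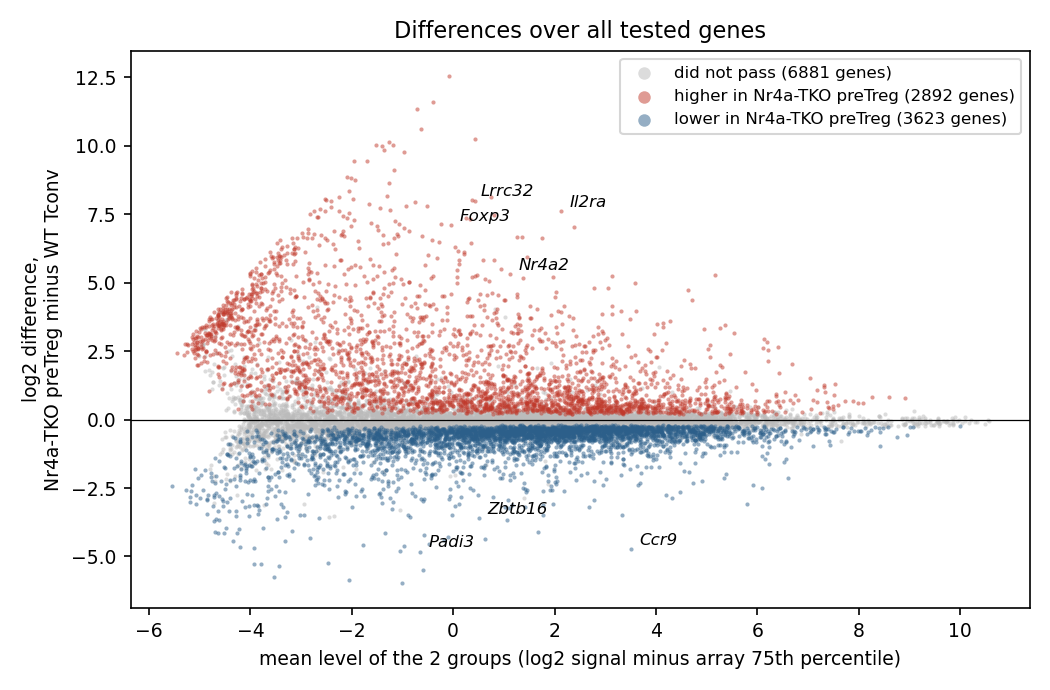
Log2 difference, Nr4a-TKO preTreg minus WT Tconv, of each tested gene against its mean level (log2 intensity relative to the 75th percentile). Called genes are coloured by direction; the higher genes reach larger differences (median 1.42) than the lower genes (median -0.59).

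The genes with the largest rises among those above background on all 4 arrays were led by a lipid receptor and by Treg surface genes. Ltb4r1, the high-affinity receptor of leukotriene B4, was at 4.77 and 4.84 in Nr4a-TKO preTreg, against -3.26 and -3.40 in WT Tconv and -0.21 and 0.024 in WT Treg, and it was 279.8-fold higher in Nr4a-TKO preTreg than in WT Tconv (limma adjusted p = 0.0016). Both wild-type populations were below Nr4a-TKO preTreg for this gene. Lrrc32, which encodes GARP, the docking receptor of latent TGF-beta on Tregs, was at 5.03 and 3.74 in Nr4a-TKO preTreg, against -3.15 and -4.11 in WT Tconv and 6.40 and 6.30 in WT Treg, and it was -1.97 against WT Treg (limma adjusted p = 0.03). Calca, which encodes the neuropeptide CGRP, was at 4.16 and 3.80 in Nr4a-TKO preTreg, against -3.23 and -3.43 in WT Tconv and -2.17 and -1.26 in WT Treg. The rest of this leading set were Il2ra, Il1rl1, Ctla4, Ear2, Foxp3, Ccl4, Cxcr5, Cd83, Ccr6, Casp4, Pparg and Rgs16, with log2 differences from 6.50 to 7.63. Beyond them, Ccl8, a chemokine of macrophages, was at 7.11 and 5.28 in Nr4a-TKO preTreg, against -6.29 and -6.43 in WT Tconv and was at least 2109-fold higher, the opioid precursor gene Penk was at least 1210-fold higher, and the inhibitory receptor gene Lilrb4a at least 1058-fold higher.

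The genes with the largest falls included innate-like and transport genes. Pyroxd2, a pyridine nucleotide oxidoreductase gene, was at -3.88 and -2.81 in Nr4a-TKO preTreg, against 2.15 and 2.14 in WT Tconv and 0.86 and 1.56 in WT Treg, and it was 44.9-fold lower in Nr4a-TKO preTreg than in WT Tconv (limma adjusted p = 0.00089). Padi3, a peptidyl arginine deiminase gene, and the monocarboxylate transporter gene Slc16a5 had log2 differences of -4.82 and -4.79. Klra8 and Klra9, receptors of the Ly49 family, were at -2.26 and -2.53 in Nr4a-TKO preTreg, against 2.03 and 2.0 in WT Tconv, and at -2.68 and -2.58 in Nr4a-TKO preTreg, against 0.91 and 0.91 in WT Tconv. Ly49 genes are close copies of each other, so their probes may not separate them. The call of Klra9 ended without either array of Nr4a-TKO preTreg or of WT Tconv, and that of Klra8 without Tconv 1. Zbtb16, which encodes PLZF and directs the innate-like T cell program, was at -1.41 and -1.17 in Nr4a-TKO preTreg, against 2.37 and 2.27 in WT Tconv. Below background on both Nr4a-TKO arrays were Mn1 (at least 23.6-fold lower), the peptide transporter gene Slc15a1 (at least 13.9-fold lower) and Arhgap29 (at least 13.8-fold lower).

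**Figure D4:**
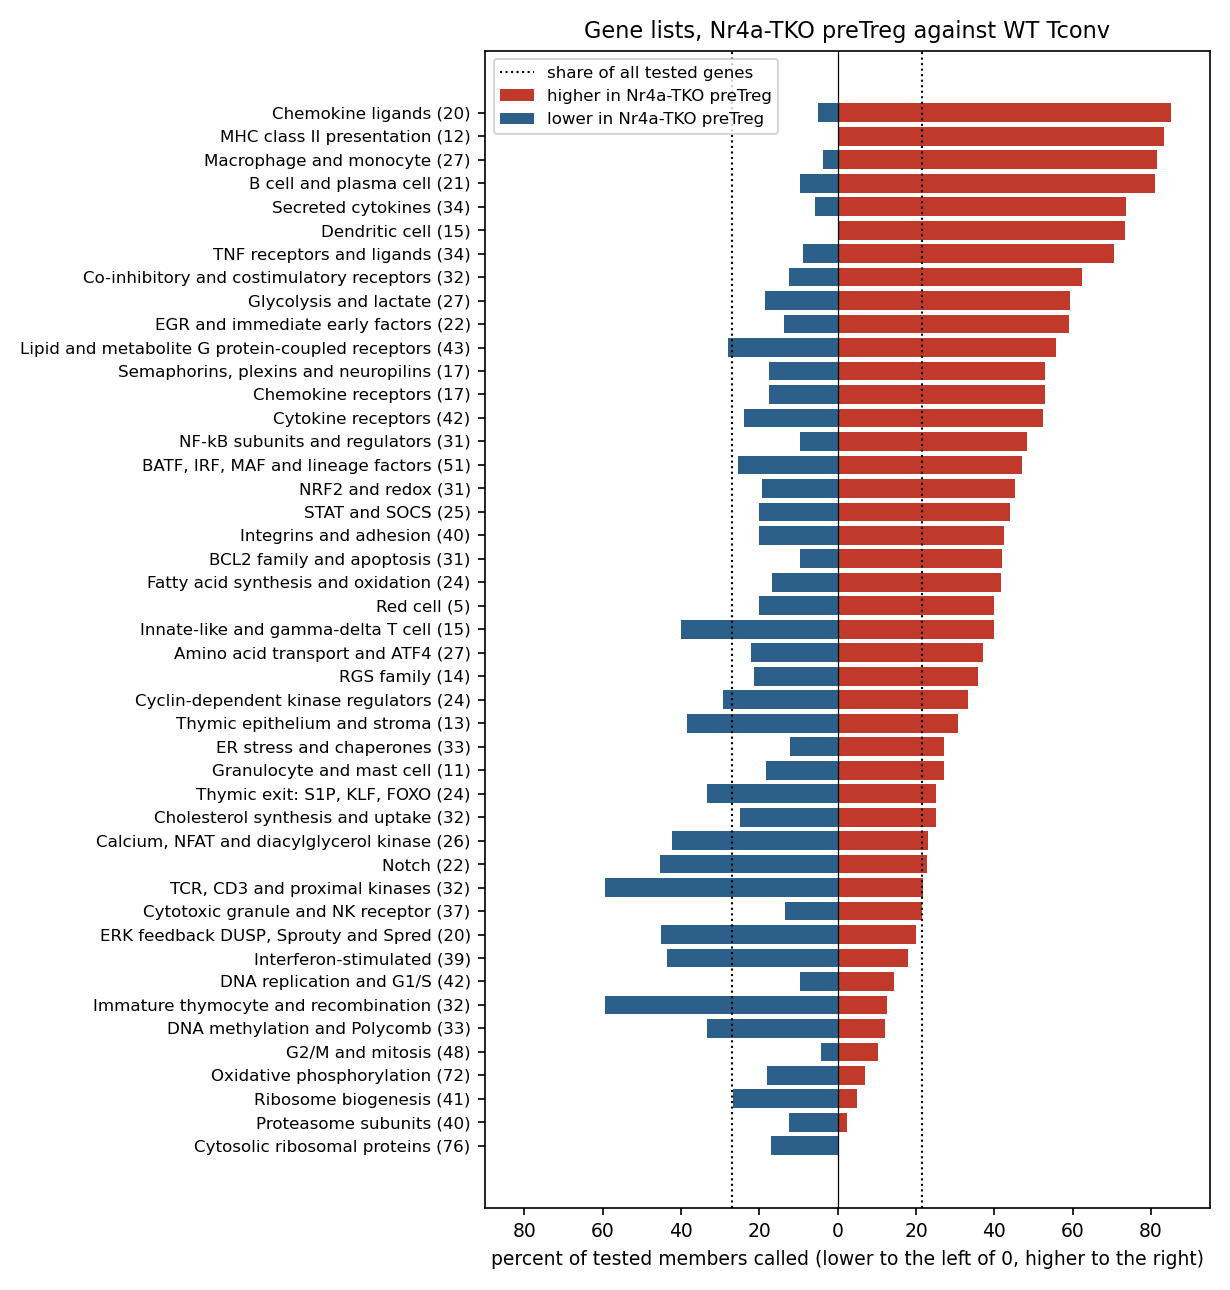
Percent of the tested members of each gene list called higher (bars to the right) or lower (bars to the left) in Nr4a-TKO preTreg than in WT Tconv. Dotted lines mark the shares over all tested genes. Chemokine ligands (85%) and secreted cytokines (73.5%) have the largest shares higher among the lists drawn that do not mark another cell type. Immature thymocyte genes and T cell receptor signalling genes have the largest shares lower among the lists drawn, 59.4% each.

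Most chemokine ligand genes rose. Of 20 tested of 31 listed genes (30 on the array), 17 rose and 1 fell, and the median log2 difference was 4.71, 3.67 with genes below background at their bound and 2.81 after normexp, another background correction, against -0.096 over all tested genes. Ccl3 and Ccl4, chemokines that activated T cells and macrophages make, were at 3.93 and 3.66 in Nr4a-TKO preTreg, against -6.27 and -6.42 in WT Tconv, and at 6.01 and 5.82 in Nr4a-TKO preTreg, against -1.04 and -1.21 in WT Tconv. Neither pair of arrays overlapped, and Ccl4 was 131-fold and Ccl3 at least 399-fold higher (limma adjusted p = 0.0069 and 0.0069). Ccl1, a ligand of Ccr8, was at 3.93 and 3.93 in Nr4a-TKO preTreg and at least 435-fold higher. Cxcl10, an interferon-induced ligand of Cxcr3, was higher by 5.82, and Cxcl16, the ligand of Cxcr6, by 2.73. Ccl25, the thymic ligand of Ccr9, was the one that fell, by 1.16 on the log2 scale.

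The ligands that macrophages make differed between the 2 Nr4a-TKO arrays as the macrophage markers did. Ccl8 was at 7.11 and 5.28, Ccl6 at 3.21 and 1.58, Ccl24 at 2.39 and 1.0 and Ccl12 at 2.23 and 0.33 on TKO 1 and TKO 2, each lower on TKO 2. Ccl1, Ccl3, Ccl4 and Cxcl10 lay closer together on the same arrays, at 3.93 and 3.93, 3.93 and 3.66, 6.01 and 5.82 and 3.62 and 3.37. The part of macrophages in these ligands was not tested. Among genes above background on all 4 arrays the number of ligands that rose was 7.

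Secreted cytokines of several helper lineages rose together. Of 34 tested of 46 listed genes (45 on the array), 25 rose and 2 fell, with a median of 3.12 (3.12 with genes below background at their bound, 2.09 after normexp and 1.05 among genes above background on all 4 arrays). Il17a, the defining cytokine of Th17 cells, was at 2.64 and 2.90 in Nr4a-TKO preTreg, against -6.62 and -6.75 in WT Tconv, and was at least 196-fold higher (limma adjusted p = 0.0044). The Th2 cytokine Il13 was at 4.63 and 4.50 in Nr4a-TKO preTreg, against -0.74 and -0.53 in WT Tconv, 36.9-fold higher (limma adjusted p = 0.00011). Il5, which supports eosinophils, was at least 124-fold higher and Il4 was higher by 2.85. For Il17a, Il13 and Il5 both Nr4a-TKO arrays were close together and far above both WT Tconv arrays.

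The regulatory cytokine gene Il10 was at 3.87 and 3.33 in Nr4a-TKO preTreg, against -6.41 and -6.40 in WT Tconv, and was at least 348-fold higher. Ebi3, whose product pairs with partner chains to form IL-27 and IL-35, was at least 207-fold higher, and its level of 3.19 and 3.22 in WT Treg was close to the 2.99 and 2.98 of Nr4a-TKO preTreg. Il2, the growth factor of Tregs that Foxp3 is known to repress, was at 1.16 and 1.47 in Nr4a-TKO preTreg, against -3.44 and -3.92 in WT Tconv and -3.54 and -3.90 in WT Treg, which is 4.99 above WT Tconv. Il21, the follicular helper cytokine, was at 3.99 and 3.44 in Nr4a-TKO preTreg, against 0.28 and 0.36 in WT Tconv and -3.21 and -5.95 in WT Treg. Ifng was at 2.93 and 2.79 in Nr4a-TKO preTreg, against -1.15 and -1.25 in WT Tconv, a difference of 4.06 that did not pass (limma adjusted p = 0.064), and Csf2 was at -2.03 and -2.69 in Nr4a-TKO preTreg, against -0.78 and -0.83 in WT Tconv and did not pass either (0.076). The genes that fell were Il34, a ligand of the macrophage growth factor receptor, by 2.20 and the growth factor gene Flt3l by 1.07 on the log2 scale. Il1b, Il6 and Il1rn, which macrophages also make, were at least 29.1-fold higher, at least 58.7-fold higher and at least 2.61-fold higher. Among genes above background on all 4 arrays 12 cytokine genes rose, and 4 fell in a fit of the 4 arrays alone.

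Ccr9, Ccr7 and Ccr10 fell among the chemokine receptors, and Cxcr5 and Ccr6 were among those that rose. Of 17 tested of 23 listed genes, 9 rose and 3 fell (median 2.30, or 1.04 after normexp). Ccr9, the receptor for thymic Ccl25, was at 0.45 and 1.82 in Nr4a-TKO preTreg, against 5.87 and 5.88 in WT Tconv, and it was 26.7-fold lower (limma adjusted p = 0.0018). Ccr7, which guides mature thymocytes to the medulla, was at 5.45 and 6.05 in Nr4a-TKO preTreg, against 7.23 and 7.35 in WT Tconv, a fall of 1.54. The third, Ccr10, had a log2 difference of -4.29. Cxcr5, the follicle homing receptor, was at 3.34 and 2.15 in Nr4a-TKO preTreg, against -4.03 and -3.88 in WT Tconv, and the Th17 and Treg receptor Ccr6 was at 4.91 and 4.49 in Nr4a-TKO preTreg, against -2.04 and -1.89 in WT Tconv. Ccr2 was higher by 3.84, Cx3cr1 by 4.62 and Cxcr6 by 2.72. Ccr4 and Ccr8, receptors often found on Tregs, differed by -0.34 and -0.097 and did not pass, with 95% intervals of -0.82 to 0.15 and -0.66 to 0.46.

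More G protein-coupled receptor genes of lipids and metabolites rose than fell, with 24 of 43 tested of 53 listed genes higher and 12 lower. The 55.8% higher was above the 21.6% over all tested genes, and the 27.9% lower was near the 27%. The median was 1.06, or 0.52 after normexp and 0.53 among genes above background on all 4 arrays. After Ltb4r1, the leukotriene receptor genes Cysltr1 and Cysltr2 were at 2.18 and 2.09 in Nr4a-TKO preTreg, against -2.94 and -3.11 in WT Tconv, and at 2.30 and 2.19 in Nr4a-TKO preTreg, against -1.58 and -1.47 in WT Tconv. The prostaglandin E2 receptor gene Ptger2 was at least 54-fold higher and Ptger4 was higher by 1.18, whereas Ptgir, the prostacyclin receptor gene, was at 0.13 and 0.08 in Nr4a-TKO preTreg, against 2.75 and 2.76 in WT Tconv, and fell by 2.65. Ffar2, a receptor of short-chain fatty acids, was higher by 4.29, and Ffar3, its paralog, was lower by 0.57. The purinergic receptor gene P2rx7 was at 3.98 and 3.73 in Nr4a-TKO preTreg, against 1.43 and 1.36 in WT Tconv and 3.82 and 3.88 in WT Treg, and the adenosine receptor gene Adora2a was higher by 2.47. The number that rose was 15 without TKO 1 and 13 without Tconv 1, and the number that fell was 4 without TKO 1, 7 without TKO 2, 5 without Tconv 1 and 5 without Tconv 2.

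Cd44, Itgb1 and Ly6 genes rose among the adhesion genes. Of 40 tested of 44 listed genes (43 on the array) of the integrin and adhesion list, 17 rose and 8 fell. Cd44, the hyaluronan receptor, was at 4.12 and 3.99 in Nr4a-TKO preTreg, against 1.52 and 1.53 in WT Tconv, and Itgb1, the beta1 integrin, was higher by 2.68. Ly6a, which encodes Sca-1, was higher by 3.16 and Ly6c1 by 2.65. Itgb8, the integrin with which Tregs activate TGF-beta, was at least 4.8-fold higher. Itgb3 fell by 2.65 on the log2 scale, while Itgal and Itga4 differed by 0.18 and 0.36 and did not pass. The number that rose was 10 among genes above background on all 4 arrays, and the number that fell was 5 without TKO 1, 4 without Tconv 1 and 4 without Tconv 2. Vcam1 and Alcam, also found on stroma and macrophages, were at least 83.7-fold higher and at least 66.1-fold higher.

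RGS proteins, which end signalling of chemokine receptors, split by member. Rgs1 was at 4.51 and 4.22 in Nr4a-TKO preTreg, against -0.36 and -0.26 in WT Tconv, a difference of 4.67 ± 0.22 (SE, limma adjusted p = 0.00025), and Rgs16 was at 3.20 and 2.75 in Nr4a-TKO preTreg, against -3.66 and -3.39 in WT Tconv. Rgs10, Rgs14 and Rgs19 fell by 0.73, 0.69 and 0.79 on the log2 scale. In all 5 of 14 tested of 20 listed genes rose and 3 fell, and the list median of 0.42 was -0.015 among genes above background on all 4 arrays, of which 2 rose. Of the semaphorins, plexins and neuropilins, 9 of 17 tested of 31 listed genes rose and 3 fell. Nrp1, a surface marker of thymic Tregs, was at 0.48 and 0.64 in Nr4a-TKO preTreg, against -3.99 and -3.43 in WT Tconv and 0.77 and 0.78 in WT Treg, and Sema7a was higher by 5.23, while Sema4a fell by 1.58.

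S1pr1, Klf2 and Foxo1 fell among the genes of exit from the thymus. Of 24 tested of 26 listed genes, 8 fell and 6 rose (median -0.32), shares of 33.3% and 25% that are near the 27% lower and 21.6% higher over all tested genes. S1pr1, the sphingosine 1-phosphate receptor that lets thymocytes leave, was at 3.20 and 3.19 in Nr4a-TKO preTreg, against 3.98 and 3.97 in WT Tconv, a log2 difference of -0.78 (limma adjusted p = 0.00092). Its activator Klf2 fell by 0.94 and Foxo1, which acts upstream of Klf2, by 0.75 on the log2 scale. Il7r, a further Foxo1 target, was at 5.10 and 5.36 in Nr4a-TKO preTreg, against 5.35 and 5.34 in WT Tconv, and Cd69, which holds S1P receptor 1 inside the cell, at 2.68 and 3.19 in Nr4a-TKO preTreg, against 3.71 and 3.77 in WT Tconv, and neither passed the test. S1pr2 was higher by 1.58, Klf6 by 1.60 and the kinase gene Sphk1 by 4.17. Without Tconv 1, 5 genes fell.

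Genes of immature thymocytes were lower in the precursors than in WT Tconv. Of 32 tested of 32 listed genes, 19 fell and 4 rose, and the median was -0.77. Dntt, the terminal transferase that adds bases at receptor gene joins, was at 0.62 and 1.57 in Nr4a-TKO preTreg, against 4.27 and 4.28 in WT Tconv, 9.05-fold lower (limma adjusted p = 0.0021). Rag2 was at least 4.92-fold lower and Rag1 was at -3.47 and -2.62 in Nr4a-TKO preTreg, against -1.27 and -1.37 in WT Tconv, a difference of -1.73 that did not pass (limma adjusted p = 0.15). The pre-T cell receptor gene Ptcra was at -4.19 and -3.01 in Nr4a-TKO preTreg, against -1.56 and -2.02 in WT Tconv, and Sox4 had a log2 difference of -2.48. Themis, needed for positive selection, fell by 0.71 on the log2 scale. In each of Dntt, Sox4 and Ccr9, TKO 1 was lower than TKO 2, as it was in the summed CD8 and immature markers. Ly6d, Cd38 and Smpdl3a were among the genes that rose. The number that fell was 9 without Tconv 1 and 10 without Tconv 2, and the number that rose was 2 without TKO 1, 2 without Tconv 1 and 2 without Tconv 2.

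The Notch pathway, which drives early thymocyte development, had 10 of 22 tested of 29 listed genes lower and 5 higher. The 22.7% higher was near the 21.6% over all tested genes. The receptor gene Notch3, highest in immature thymocytes, was at -3.96 and -3.37 in Nr4a-TKO preTreg, against -1.90 and -1.83 in WT Tconv, and Dtx1, a Notch target, at 3.42 and 2.41 in Nr4a-TKO preTreg, against 4.05 and 3.99 in WT Tconv, and both fell. Rbpj, the DNA-binding partner of all Notch receptors, was at 4.0 and 3.90 in Nr4a-TKO preTreg, against 1.32 and 1.20 in WT Tconv, higher by 2.69 (limma adjusted p = 0.0028), and the target gene Hes5 was higher by 2.35. Notch1 differed by 0.38 and did not pass. The number of Notch genes that fell was 6 with no filter on dim probes, 6 in a fit of the 4 arrays alone, 6 without TKO 1, 3 without Tconv 1 and 4 without Tconv 2.

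Genes of proximal T cell receptor signalling were mostly lower, by small amounts. Of 32 tested of 32 listed genes of receptor chains, CD3 and proximal kinases, 19 fell and 7 rose (median -0.40). The share that rose, 21.9%, was near the 21.6% over all tested genes. The Tec family kinase gene Txk was at 2.97 and 3.13 in Nr4a-TKO preTreg, against 4.78 and 4.76 in WT Tconv, with a fall of 1.72 on the log2 scale. The adaptor genes Grap2 and Lat fell by 1.67 and 0.98, the zeta chain gene Cd247 by 1.05, and the Ras activator gene Rasgrp1 by 1.09. Cd3e was at 7.03 and 7.13 in Nr4a-TKO preTreg, against 7.23 and 7.23 in WT Tconv, with an interval of the difference of -0.33 to 0.022. Against this, Zap70, the kinase that binds the zeta chain, was at 7.46 and 7.46 in Nr4a-TKO preTreg, against 6.71 and 6.77 in WT Tconv, higher by 0.72 ± 0.071 (SE, limma adjusted p = 0.0014). Of the genes of inhibitors, the phosphatase genes Ptpn22 and Ubash3b were higher by 1.12 and 1.79 and the adaptor gene Sla by 1.16, while Csk, Ptpn6 and Pag1 fell by 0.40, 0.60 and 1.40 on the log2 scale. Fewer fell in other fits: 11 without TKO 1, 9 without Tconv 1 and 10 without Tconv 2.

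Calcium and diacylglycerol genes followed a like pattern, with 11 of 26 tested of 27 listed genes lower and 6 higher, the 23.1% higher again near the 21.6%. The diacylglycerol kinases end diacylglycerol signalling, and Dgka, Dgkz, Dgkd and Dgkh fell by 0.75, 0.49, 1.11 and 1.39 on the log2 scale. Camk4 was at 2.09 and 2.28 in Nr4a-TKO preTreg, against 3.79 and 3.66 in WT Tconv, and Rcan3 fell by 1.73. Nfatc1 was higher by 0.60 and the calcium channel gene Orai1 by 0.73, and Nfatc2 differed by 0.22 and did not pass. Of the ERK feedback genes, 9 of 20 tested of 23 listed genes fell and 4 rose, the latter 20%, also near the share of all tested genes. Spry1 was at 3.62 and 3.82 in Nr4a-TKO preTreg, against -2.03 and -2.20 in WT Tconv, higher by 5.84, and the phosphatase gene Dusp4 was at 1.08 and 1.34 in Nr4a-TKO preTreg, against -2.70 and -2.37 in WT Tconv, whereas Dusp6, the ERK-specific phosphatase gene, fell by 0.62. The number of calcium genes that fell was 7 without TKO 2, 7 without Tconv 1 and 7 without Tconv 2, and that of ERK feedback genes was 5 without Tconv 2.

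More immediate early factors rose than fell. Of 22 tested of 24 listed genes, 13 rose and 3 fell (median 0.68). Fos was at 1.01 and 1.23 in Nr4a-TKO preTreg, against -0.46 and -0.62 in WT Tconv, and Fosl2 was higher by 2.93 and Jun by 1.92. Nfil3 was at 3.88 and 3.48 in Nr4a-TKO preTreg, against -1.79 and -1.83 in WT Tconv, and Atf3, a stress-induced factor, was at least 27.5-fold higher. Egr2 was higher by 0.55, while Egr1 was at 4.34 and 4.34 in Nr4a-TKO preTreg, against 4.58 and 4.53 in WT Tconv and did not pass. Myc fell by 0.72 and Nab2, the co-repressor of Egr proteins, by 1.17 on the log2 scale.

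Batf, Irf4, Prdm1 and Maf, factors of effector T cells, rose, and Lef1, Bach2 and Tcf7, factors of naive T cells, fell. Of 51 tested of 52 listed genes, 24 rose and 13 fell (median 0.72, or 0.46 after normexp and 0.44 among genes above background on all 4 arrays). The 25.5% that fell was near the 27% over all tested genes. Batf, a partner of Irf4 in effector Tregs, was at 5.15 and 5.12 in Nr4a-TKO preTreg, against 2.63 and 2.62 in WT Tconv, 5.69-fold higher (limma adjusted p = 0.00072). Irf4 was higher by 1.60. Prdm1, which encodes Blimp-1, was at 3.0 and 2.62 in Nr4a-TKO preTreg, against -1.05 and -1.20 in WT Tconv, and Maf, a factor for Il10, at 5.74 and 5.19 in Nr4a-TKO preTreg, against 0.56 and 0.71 in WT Tconv. For these 4 genes every Nr4a-TKO array was above every WT Tconv array. Zbtb32, a zinc finger repressor of activated lymphocytes, was at least 737-fold higher. Pparg, the factor of fat-resident Tregs, was higher by 6.57, Vdr, the vitamin D receptor gene, by 4.61 and Bhlhe40 by 6.05.

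Lef1, a naive T cell factor, was at 5.19 and 5.86 in Nr4a-TKO preTreg, against 7.65 and 7.69 in WT Tconv, 4.41-fold lower (limma adjusted p = 0.0026). Bach2, which restrains effector genes, fell by 1.54, Id3 by 1.44, Ikzf1 by 1.1 and Zbtb7b, the CD4 lineage factor ThPOK, by 1.23 on the log2 scale. The Ikaros family was split in Nr4a-TKO preTreg: Ikzf2 (Helios) and Ikzf4 (Eos) were at 3.88 and 3.48 in Nr4a-TKO preTreg, against -0.25 and -0.46 in WT Tconv and 5.04 and 4.94 in WT Treg, and at 3.23 and 2.73 in Nr4a-TKO preTreg, against 1.86 and 1.80 in WT Tconv and 5.99 and 5.90 in WT Treg. Both were above WT Tconv and below WT Treg, by -1.31 for Ikzf2 and -2.96 for Ikzf4 against WT Treg. Gata3 and Runx1 differed by 0.11 and -0.12, and Tbx21 and Eomes, factors of Th1 and cytotoxic cells, by 1.28 and 1.83, and these did not pass.

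Receptor genes of the IL-1 family rose, and single chains of the IL-6, interferon and TGF-beta receptors fell. Of 42 tested of 44 listed genes, 22 rose and 10 fell (median 1.19, or 0.62 after normexp). The share that fell, 23.8%, was near the 27% over all tested genes. Il1r2, the decoy receptor of IL-1, was at 4.85 and 5.08 in Nr4a-TKO preTreg, against -6.31 and -6.45 in WT Tconv and 2.62 and 2.55 in WT Treg, and was at least 901-fold higher than in WT Tconv. Il1rl1, the IL-33 receptor gene, was at 4.62 and 4.49 in Nr4a-TKO preTreg, against -2.79 and -3.08 in WT Tconv and 2.55 and 2.56 in WT Treg. Il1r1 was at least 42.3-fold higher, and Il2rb, the beta subunit shared by the IL-2 and IL-15 receptors, was higher by 2.0. Il6ra was at 4.85 and 4.66 in Nr4a-TKO preTreg, against 5.96 and 5.91 in WT Tconv, a log2 difference of -1.18, Tgfbr2 fell by 0.88, Tgfbr3 by 2.57, Ifnar1 by 1.16 and Ifngr2 by 1.59 on the log2 scale. Ifngr1 and Tgfbr1, partners of 2 receptors whose other chain fell, were higher by 1.5 and 1.40.

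Downstream of these receptors, the IL-2 feedback genes rose most. Cish was at 5.57 and 5.47 in Nr4a-TKO preTreg, against 2.43 and 2.36 in WT Tconv and 5.32 and 5.47 in WT Treg, 8.68-fold higher than in WT Tconv (limma adjusted p = 0.00012), with Nr4a-TKO preTreg and WT Treg overlapping. Socs2, Socs3 and the kinase gene Pim1 were higher by 5.89, 2.68 and 2.68, and Socs1 differed by 0.34 and did not pass. Stat3, Stat4 and Jak3 were higher by 1.21, 1.53 and 1.43, and Jak1 fell by 0.38. In all 11 of 25 tested of 26 listed genes rose and 5 fell, and the number that fell was 1 without TKO 1, 0 without Tconv 1 and 1 without Tconv 2.

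The survival gene Bcl2 was lower and several death genes were higher in Nr4a-TKO preTreg. Bcl2 was at 2.93 and 3.45 in Nr4a-TKO preTreg, against 4.84 and 5.01 in WT Tconv, 3.34-fold lower (limma adjusted p = 0.0018), while Mcl1 and Bcl2l1 differed by -0.077 and 0.41 and did not pass. Of 31 tested of 36 listed genes (34 on the array) of the apoptosis list, 13 rose and 3 fell. The number that fell was 5 in a fit of the 4 arrays alone, 1 without Tconv 1 and 1 without Tconv 2. Pmaip1, which encodes the BH3-only protein Noxa, was at 2.74 and 2.28 in Nr4a-TKO preTreg, against -3.86 and -3.12 in WT Tconv, and Casp1 and Casp4, the inflammatory caspase genes, were higher by 5.95 and 6.65. Bbc3 (Puma), an effector of negative selection, fell by 1.14 on the log2 scale, and Bcl2l11 (Bim) was at -2.27 and -2.11 in Nr4a-TKO preTreg, against -1.77 and -1.52 in WT Tconv and did not pass. The genes for DNA damage response proteins Gadd45b and Gadd45g were higher by 3.16 and 2.15.

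Most cell cycle genes did not pass the test against WT Tconv, and most were higher than in WT Treg. The comparison with WT Treg uses the same Nr4a-TKO arrays, so the comparisons are not independent. Against WT Tconv, 6 of 42 tested of 43 listed genes of DNA replication rose and 4 fell, and of 48 tested of 49 listed genes of G2/M and mitosis 5 rose and 2 fell. Against WT Treg, 36 of the 42 replication genes and 45 of the 48 mitosis genes rose and 0 and 0 fell, where 19.6% of all tested genes were higher and 15.6% lower (35.3% in all). The median log2 differences were 0.017 and 0.087 against WT Tconv, and 0.81 and 1.30 against WT Treg.

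Mki67, the proliferation marker, was at 5.29 and 5.13 in Nr4a-TKO preTreg, against 5.06 and 5.05 in WT Tconv and 3.71 and 3.73 in WT Treg. It differed from WT Tconv by 0.16 (95% interval -0.084 to 0.39) and from WT Treg by 1.49 (limma adjusted p = 0.00076). Ccnb1, the mitotic cyclin, was at 2.05 and 2.0 in Nr4a-TKO preTreg, against 1.70 and 1.72 in WT Tconv and 0.51 and 0.45 in WT Treg, and the replicative helicase gene Mcm5 at 4.14 and 4.40 in Nr4a-TKO preTreg, against 4.19 and 4.21 in WT Tconv and 3.24 and 3.22 in WT Treg. For Mki67, Ccnb1 and Mcm5 every Nr4a-TKO array was above every WT Treg array. The share of all tested genes with such a gap against WT Treg was not counted. Kif23, a kinesin of cell division, was the exception: at -0.28 and -0.50 in Nr4a-TKO preTreg, against 1.68 and 1.56 in WT Tconv, it fell by 2.01 against WT Tconv. Against WT Tconv the number of mitosis genes that rose was 1 with median scaling, 2 with no filter on dim probes, 3 with the mean of the probes, 1 without TKO 1, 2 without TKO 2, 1 without Tconv 1 and 1 without Tconv 2, the number of replication genes that fell was 1 without TKO 1, 0 without Tconv 1 and 0 without Tconv 2, and the median of the replication list turned to -0.06 with median scaling. Against WT Treg the numbers higher stayed between 30 and 36 for replication and between 41 and 45 for mitosis over the settings tried, except that 13 and 36 passed a 2-fold minimum. The number of mitosis genes that fell against WT Tconv was 1 without TKO 1, 1 without TKO 2, 1 without Tconv 1, 1 without Tconv 2, 5 without Foxp3-KO 1, 5 without Foxp3-KO 2 and 5 without both Foxp3-KO preTreg arrays.

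**Figure D5:**
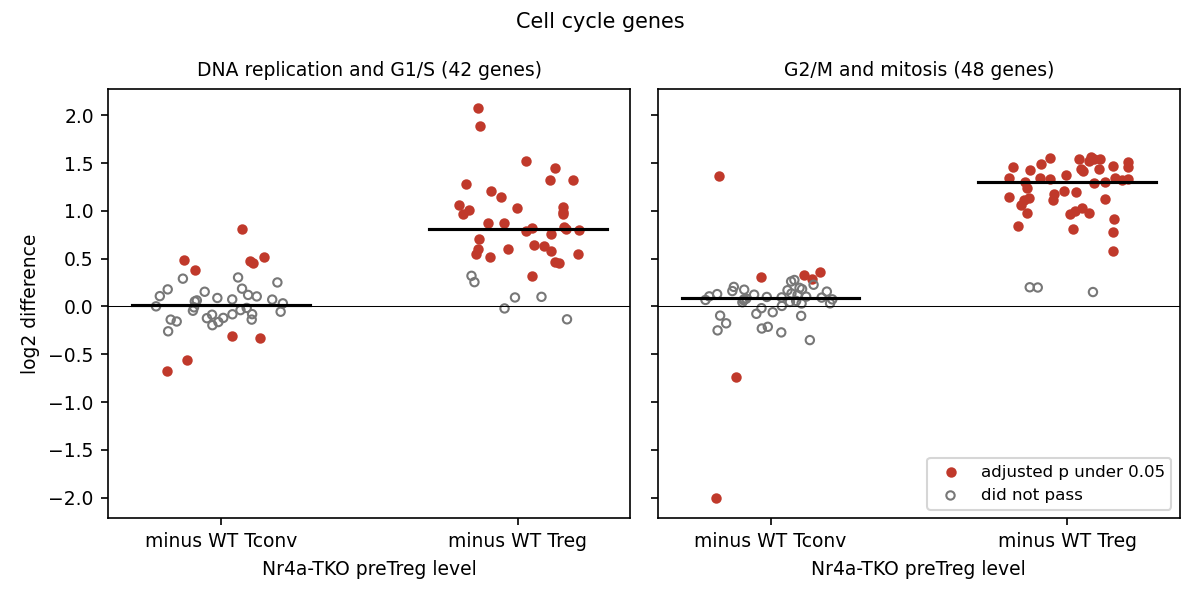
Log2 difference of cell cycle genes, Nr4a-TKO preTreg minus WT Tconv and minus WT Treg, for the replication list (42 genes) and the mitosis list (48 genes). Each point is 1 gene, filled where the limma adjusted p was under 0.05, and a bar marks the median. The medians of replication and mitosis genes are 0.017 and 0.087 against WT Tconv, and 0.81 and 1.30 against WT Treg.

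The cell cycle inhibitor genes Cdkn1a, Cdkn2a and Cdkn2b rose. Cdkn1a, which encodes p21, was at 1.23 and 1.08 in Nr4a-TKO preTreg, against -5.86 and -5.34 in WT Tconv and -2.51 and -3.19 in WT Treg, at least 64.2-fold higher than in WT Tconv and 4.01 above WT Treg. Cdkn2a, the INK4A and ARF gene, was at 0.33 and 0.002 in Nr4a-TKO preTreg, against -3.10 and -3.04 in WT Tconv and -6.02 and -6.12 in WT Treg, higher by 3.23 ± 0.29 (SE, limma adjusted p = 0.0011) than in WT Tconv; over WT Treg it was at least 20.3-fold higher. Its neighbour Cdkn2b, which encodes p15, was at least 46.6-fold higher than in WT Tconv; over WT Treg it was at least 29.3-fold higher. For all 3, every Nr4a-TKO array was above every wild-type array. Against WT Tconv a gap in either direction held for 82.5% of all tested genes, and against WT Treg that share was not counted. Cdkn1b was at 4.42 and 4.42 in Nr4a-TKO preTreg, against 4.20 and 4.25 in WT Tconv and did not pass, and Cdkn2d fell by 0.59 on the log2 scale. Of the cyclin and kinase genes, Cdk6 was higher by 2.17 and Ccnd1 by 1.68, while Ccnd3 fell by 0.83 and Cdk4 by 0.45. In all 8 of 24 tested of 24 listed genes rose and 7 fell, the lower share near that of all tested genes. The number that rose was 5 without Tconv 1, and the number that fell was 4 with no filter on dim probes, 2 without TKO 1, 3 without TKO 2, 1 without Tconv 1 and 1 without Tconv 2.

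Housekeeping machinery moved little. Of 76 tested of 77 listed genes (76 on the array) of the cytosolic ribosome, 0 rose and 13 fell (median -0.15), with falls of at most 0.53, for Rpl31, on the log2 scale. This number was 8 with quantile normalization, 35 with median scaling, 4 with no filter on dim probes, 20 with the mean of the probes, 26 with an intensity trend, 1 without TKO 1, 7 without TKO 2, 0 without Tconv 1, 0 without Tconv 2, 8 without Treg 1 and 8 without Treg 2. Of 41 tested of 41 listed genes of ribosome biogenesis 11 fell and 2 rose, of 72 tested of 72 listed genes of oxidative phosphorylation 13 fell and 5 rose, and of 40 tested of 41 listed genes (40 on the array) of the proteasome 5 fell and 1 rose. Their medians were -0.18, -0.067 and -0.01, beside -0.096 over all tested genes, and that of the proteasome was 0.022 after normexp. The number of genes that fell was 5 without TKO 1, 4 without Tconv 1 and 4 without Tconv 2 for ribosome biogenesis, and 2 without TKO 1, 3 without TKO 2, 1 without Tconv 1 and 1 without Tconv 2 for the proteasome. For oxidative phosphorylation the number that fell was 3 with no filter on dim probes, 21 with an intensity trend, 4 without TKO 1, 4 without TKO 2, 2 without Tconv 1, 1 without Tconv 2, 8 without Treg 1 and 8 without Treg 2, and the number that rose was 2 with median scaling, 1 with no filter on dim probes, 0 without TKO 1, 1 without TKO 2, 0 without Tconv 1, 0 without Tconv 2, 2 without Treg 1 and 2 without Treg 2.

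Metabolic genes moved by member, with glycolysis the clearest. Of 27 tested of 27 listed genes, 16 rose and 5 fell (median 0.62). Hk2, the inducible hexokinase gene, was at 0.40 and 0.35 in Nr4a-TKO preTreg, against -3.02 and -2.82 in WT Tconv, and the lactate exporter gene Slc16a3 at 3.27 and 2.92 in Nr4a-TKO preTreg, against 0.0097 and -0.0094 in WT Tconv, higher by 3.09 (limma adjusted p = 0.00021). Pdk1, which diverts pyruvate from mitochondria, fell by 2.0 and Ldhb by 1.48 on the log2 scale. The number that fell was 3 without TKO 1, 3 without Tconv 1 and 3 without Tconv 2.

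Lipid storage genes rose within the fatty acid list, of which 10 of 24 tested of 26 listed genes rose and 4 fell. Fabp5, a fatty acid binding protein gene of T cells, was at 6.89 and 6.30 in Nr4a-TKO preTreg, against 3.27 and 3.31 in WT Tconv, and the lipid droplet gene Plin2 at 3.68 and 3.48 in Nr4a-TKO preTreg, against 1.44 and 1.38 in WT Tconv. Dgat1 and Dgat2, of triglyceride synthesis, were higher by 1.94 and 2.30. Fabp4, found in macrophages, was at 1.60 and 0.29 in Nr4a-TKO preTreg, against -6.51 and -6.65 in WT Tconv. Of 32 tested of 33 listed genes of cholesterol synthesis and uptake, 8 rose and 8 fell, near the shares over all tested genes. The efflux pump gene Abca1 was higher by 2.51, and the synthesis genes Mvd and Dhcr7 fell by 0.97 and 1.0 on the log2 scale. The number of cholesterol genes that rose was 5 with no filter on dim probes, 2 without TKO 1, 2 without Tconv 1 and 3 without Tconv 2, the number that fell was 5 without TKO 1, 5 without TKO 2, 4 without Tconv 1 and 5 without Tconv 2, and the number of fatty acid genes that fell was 2 without Tconv 1.

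More redox genes rose than fell, and those with the largest rises lay below background in WT Tconv. Of 31 tested of 33 listed genes of the NRF2 list, 14 rose and 6 fell. Srxn1, a sulfiredoxin gene and NRF2 target, was at 3.64 and 3.18 in Nr4a-TKO preTreg, against -5.75 and -5.70 in WT Tconv and -0.48 and -0.55 in WT Treg, and at least 306-fold higher than in WT Tconv. Mt1, a metallothionein gene, was at 3.68 and 2.80 in Nr4a-TKO preTreg, against -4.39 and -5.06 in WT Tconv and 0.43 and -0.42 in WT Treg, and at least 201-fold higher. The number that rose was 4 without TKO 1, 9 without TKO 2, 4 without Tconv 1 and 5 without Tconv 2, and the number that fell was 3 with no filter on dim probes, 3 without TKO 1, 3 without TKO 2 and 3 without Tconv 2.

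Chaperone genes differed between the Nr4a-TKO arrays. Hspa1a, the inducible HSP70 gene, was at 1.32 and -1.55 in Nr4a-TKO preTreg, against -5.68 and -6.64 in WT Tconv, so TKO 1 was far above TKO 2. It was at least 26.6-fold higher. Of 33 tested of 34 listed genes (33 on the array) of the ER stress and chaperone list, 9 rose and 4 fell, and the share that rose was near that of all tested genes. Xbp1, the splicing target of Ern1, was at 5.62 and 5.23 in Nr4a-TKO preTreg, against 4.54 and 4.45 in WT Tconv, and Ern1 was higher by 1.47. The number that rose was 4 with median scaling, 5 with no filter on dim probes, 3 without TKO 1, 3 without Tconv 1 and 2 without Tconv 2, and the number that fell was 2 without TKO 2, 1 without Tconv 1 and 2 without Tconv 2. Of 27 tested of 29 listed genes (28 on the array) of amino acid transport and ATF4 targets, 10 rose and 6 fell, with Eif4ebp1, a brake on translation, higher by 1.56 and the transporter gene Slc38a2 lower, at -0.91. There the number that rose was 6 without TKO 1, 5 without Tconv 1 and 5 without Tconv 2, and the number that fell was 1 without Tconv 1 and 2 without Tconv 2.

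More interferon-stimulated genes fell than rose. Of 39 tested of 41 listed genes (39 on the array), 17 fell and 7 rose (median -0.20). Oasl2 was at 1.43 and 1.21 in Nr4a-TKO preTreg, against 3.59 and 3.49 in WT Tconv, 4.67-fold lower (limma adjusted p = 0.00026). Ifit1, which binds foreign RNA, fell by 1.05, and the RNA sensor gene Ddx58 by 0.92 on the log2 scale. The guanylate binding protein gene Gbp3 was at 4.21 and 3.57 in Nr4a-TKO preTreg, against 0.33 and 0.44 in WT Tconv and rose, as did Oas1a, by 1.5. Of these genes, the number that fell was 10 without TKO 1, 9 without Tconv 1 and 8 without Tconv 2.

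Of 33 tested of 36 listed genes (35 on the array) of DNA methylation and Polycomb, 11 fell and 4 rose, and the share of 33.3% that fell was near the 27% of all tested genes. Tet1, a demethylase gene, was at -0.86 and -0.15 in Nr4a-TKO preTreg, against 2.77 and 2.68 in WT Tconv, 9.38-fold lower (limma adjusted p = 0.0012), and the methyltransferase gene Dnmt3a fell by 0.92 on the log2 scale. Uhrf1, which guides maintenance methylation, was at 4.27 and 4.29 in Nr4a-TKO preTreg, against 4.25 and 4.20 in WT Tconv and did not pass. In other fits the number that fell was 7 without TKO 1, 6 without Tconv 1 and 5 without Tconv 2, and the number that rose was 1 with median scaling, 2 with no filter on dim probes, 1 without TKO 1, 2 without TKO 2, 1 without Tconv 1 and 2 without Tconv 2.

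The cytotoxic granule genes Gzmb, Nkg7 and Srgn rose, and the NK receptor gene Klrb1c fell. Gzmb, which encodes granzyme B, was at 6.38 and 5.77 in Nr4a-TKO preTreg, against 1.01 and 1.16 in WT Tconv and -0.31 and 0.30 in WT Treg, 31.7-fold higher than in WT Tconv (limma adjusted p = 0.01). The call of Gzmb ended without TKO 1, without Tconv 1 and without Tconv 2. Nkg7 and Srgn, of the granule, were higher by 2.56 and 2.83. Klrb1c, which encodes NK1.1, was at -1.68 and -1.14 in Nr4a-TKO preTreg, against 1.62 and 1.69 in WT Tconv, a log2 difference of -3.07 (limma adjusted p = 0.044). The call ended without either array of Nr4a-TKO preTreg, of WT Tconv or of WT Treg, with no filter on dim probes and with the replicate block, and its adjusted p ranged from 0.00085 to 0.16 over the alternatives. The sum of 5 innate-like or NK markers, Klrb1c among them, was lower in Nr4a-TKO preTreg and that of the longer innate-like list was higher, as given above, and their part in the result was not tested. In all 8 of 37 tested of 46 listed genes (44 on the array) rose and 5 fell, where 21.6% of all tested genes were higher and 27% lower, so the share that rose was that of all genes, and the median of 0.083 was -0.028 without TKO 2. The number that rose was 5 among genes above background on all 4 arrays, 2 without TKO 1, 2 without Tconv 1 and 3 without Tconv 2, and the number that fell was 15 in a fit of the 4 arrays alone, 2 without TKO 1, 2 without TKO 2, 1 without Tconv 1, 2 without Tconv 2, 13 without Foxp3-KO 1, 13 without Foxp3-KO 2 and 13 without both Foxp3-KO preTreg arrays.

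A set of genes lay above both wild-type populations, again with the same Nr4a-TKO arrays in each comparison. Sostdc1, a secreted antagonist of BMP and WNT signals, was at 4.03 and 3.60 in Nr4a-TKO preTreg, against -6.48 and -5.92 in WT Tconv and -3.89 and -4.43 in WT Treg, at least 406-fold higher than in WT Tconv and 7.98 above WT Treg. Il17a was at least 123-fold higher than in WT Treg, Ccl3 at least 203-fold higher and Il5 at least 87-fold higher. Fewer genes lay far below both. Lad1, a basement membrane filament gene, was at -6.08 and -5.99 in Nr4a-TKO preTreg, against -3.38 and -3.31 in WT Tconv and 2.62 and 2.31 in WT Treg. It was at least 2.15-fold lower than in WT Tconv, and at least 121-fold lower than in WT Treg. Drc1 was at -0.02 and -1.13 in Nr4a-TKO preTreg, against 2.69 and 2.52 in WT Tconv and 3.25 and 3.22 in WT Treg, and Pyroxd2 belongs to the same set. After normexp, Lad1 did not pass against WT Tconv. The call of Sostdc1 against WT Tconv ended without either array of Nr4a-TKO preTreg or of WT Tconv.

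For 24 of 3571 genes with several tested probes, the probes were called in opposite directions, so the gene has no single direction here. The brighter probe of Xaf1, an interferon-stimulated gene, fell by 0.61 on the log2 scale (limma adjusted p = 0.0072), and its dimmer probe was 3.78 higher (0.0030). Marchf1, a ubiquitin ligase gene that acts on MHC class II, had log2 differences of -0.38 on the brighter probe and 5.82 on the dimmer one. Prnp, the prion protein gene, had probes at -0.26 and 2.50, Arhgap27 at -0.52 and 2.68, and Med8, a Mediator subunit gene, at 0.48 and -2.81.

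Probes that carried no gene symbol were tested apart from the genes, by the same fit. Of 27655 such probes, 11681 passed the same filter on background, and 1146 (9.81%) were higher and 2768 (23.7%) lower in Nr4a-TKO preTreg than in WT Tconv (limma, adjusted over these probes). Their median log2 difference was -0.22, beside -0.096 over the genes. Of 16194 probes named only by their position between genes, 6090 passed the filter, and 517 (8.49%) were higher and 1532 (25.2%) lower, with a median of -0.28. Both sets had a smaller share higher than the 21.6% of genes.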

How the data were processed

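Expression was measured in 8 samples, 2 arrays for each of 4 sorted populations, on 1 slide with a common scan time. The submitters' processing notes name Agilent Feature Extraction 10.7.1.1 for reading the spots. Per the file headers, the deposited spot values are processed Cy3 intensity, after the software's background subtraction and spatial detrending and before arrays were scaled to each other. A matrix of scaled linear intensity that the authors deposited was used as an alternative.

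Control spots (3671 of 62976 on an array) and flagged outliers were left out, 0 spots were saturated, the log2 intensity minus the 75th percentile of the array was taken, and spots of a probe were averaged. Probes were named through their RefSeq accession (28026 probes with a symbol, 27655 without). The array annotation is older than the reference build, so coordinates are given only for promoter windows of GRCm38.p6. All 4 groups were fitted together in limma 3.58.1 (R 4.3.3; 4 residual and 1.6 prior degrees of freedom), without a covariate or replicate block, and p-values were adjusted over all tested genes by the Benjamini-Hochberg method at 0.05. For 1 tested gene an array value was missing. The procedure was also run on simulated arrays with few changed genes and independent noise. These differ from the data in both respects, so that run gives no error rate for the calls here. The number of arrays limits the precision, and p-values measure the spread between these samples.

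The genes named are the targeted and gate genes, the 15 largest called differences in each direction among genes above background on all 4 arrays, the 5 largest bounds in each direction, members of the gene lists with the smallest adjusted p or a known central role, genes above or below both wild-type populations, and genes with opposed probes. Members and lists were chosen with earlier results of these data known. Alternatives were other normalizations (quantile, median scaling, normexp with an offset of 50, the deposited matrix), other filters, the mean of the probes or every probe, an intensity trend, a fit of the 4 arrays alone, the replicate block, a 2-fold minimum and leaving out each array. Same-numbered arrays of Nr4a-TKO preTreg and WT Tconv did not deviate together (r = -0.013), while those of Nr4a-TKO preTreg and Foxp3-KO preTreg had r = 0.264. Some genes of the lists are counted in them and not reported by name here.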

Additional observations from a re-analysis of the deposited data

How the results depend on the processing

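A 2-fold minimum left 2613 genes called against WT Tconv (1779 higher, 834 lower) and 1705 against WT Treg (1172 higher, 533 lower), and median scaling left 1365 lower against WT Treg. Leaving out each array in turn gave 3117 to 7185 called against WT Tconv (1659 to 3122 higher, 1458 to 4063 lower) and 2109 to 5792 against WT Treg (1212 to 3210 higher, 897 to 2582 lower). Each of these fits loses a residual degree of freedom. The lowest counts came without Tconv 1 and without replicate 2 of WT Treg. The highest came without a Foxp3-KO preTreg array, or without both, a setting added after seeing the data. With the replicate number as a block, 6211 genes were called against WT Tconv and 4448 against WT Treg. The blocked fit moved neither count by over 1.5 times. In their deviations, same-numbered arrays of Nr4a-TKO preTreg and Foxp3-KO preTreg correlated at 0.264. The values were 0.196 for WT Treg with Foxp3-KO preTreg and 0.156 for Nr4a-TKO preTreg with WT Treg. Pairs with WT Tconv lay between -0.032 and -0.013. Whether the replicate numbers mark a shared batch was not tested. When a gene's probes were averaged, 6 named genes had the opposite sign: Cdk1 (-0.93, limma adjusted p = 0.11), Marchf1 (2.72), Xaf1 (1.59), Med8 (-1.17), Arhgap27 (0.67) and Prnp (0.70), since averaging lets a dimmer probe with the opposite difference set the value. Of the other values of named genes under these alternatives, 7155 stayed on the same side of the threshold, 360 no longer passed and 6 newly passed. Those that no longer passed include the 2-fold minimum. Among the 7155, values that passed neither in the main fit nor in the alternative may have changed sign. Genes near background limit the comparison: they have only a bound on their fold.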
